A study of Mus musculus with 8 samples.

Results

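In the deposited list of chromatin regions bound by tagged KLF13, 338 of 9506 peaks were intergenic yet had the TSS (transcription start site) of some gene at most 25 kb away. They were taken as the peaks that the authors' annotation calls distal intergenic and places at most 25 kb from the nearest TSS, and they made up 3.56% of the list (exact 95% binomial interval 3.19 to 3.95). Of the 698 distal intergenic peaks they were 48.4%, and the other 360 lay farther out. The 338 peaks were spread over 21 chromosomes and covered 175 kb in all, and each was assigned by the annotation to its nearest gene, giving 291 genes. Another 7599 peaks of the list were promoter peaks, within 1 kb of a TSS.

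The list comes from HT22, an immortalised cell line of mouse hippocampal neurons. The libraries were 4 of KLF13 chromatin streptavidin precipitation (ChSP) and 4 of input chromatin. All 8 came from HT22-BirA cells, which stably carry the biotin ligase BirA, transfected 24 h earlier with the plasmid pTO-Klf13Bio for a KLF13 protein that BirA biotinylates, so the input cells carry the ligase and the plasmid too. KLF13 is thus made from a plasmid on top of the cells' own gene, and cells without tagged KLF13 are not among the libraries, so capture on streptavidin that does not depend on KLF13 cannot be told apart from KLF13 binding. Each peak has a single fold (ChSP over input, linear), p-value and adjusted p-value, computed by the authors over all libraries together. No fold therefore carries an error between replicates, no difference between peak classes could be tested across libraries, and the intervals below cover only the spread or counting over peaks. The read depth behind a peak is unknown.

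KLF13 is a zinc finger transcription factor of the Krüppel-like family, whose members recognise GC boxes and CACCC boxes and often bind promoters rich in CpG. KLF13 belongs to the subgroup that recruits the SIN3A corepressor through its amino-terminal part. Intergenic stretches near genes can hold enhancers and silencers as well as starts of transcripts that a given annotation does not list. Enhancers near genes for developmental regulators are known to be numerous in the nervous system.

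Some of the intergenic peaks lay over a transcription start in another annotation. Among the 333 peaks on chromosomes with promoter entries in a RefSeq table of the same build (GRCm38.p6), 25 held a RefSeq start, or 7.51% (exact 95% binomial interval 4.92 to 10.9), and 40 (12.01%, 8.72 to 15.996) had one within 1 kb. Of these 25, 17 held the start of a gene other than the assigned one and 8 another start of the assigned gene itself. The nearest start belonged to a protein-coding gene in 15 of these peaks and to a long noncoding RNA gene in 10. The following are the RefSeq promoters whose starts lie in 6 of them, 250 bases before to 50 bases after the start. They are shown because their sequence can be read. The Gm31954 promoter runs past the end of its peak at 68400400, and the others shown lie wholly inside their peaks. Capitals mark GC boxes (GGGCGG) and CACCC boxes (CACCC), searched on both strands, and capitals run together where boxes overlap or adjoin.
Snx25 (chr8:46152392-46152691, minus strand): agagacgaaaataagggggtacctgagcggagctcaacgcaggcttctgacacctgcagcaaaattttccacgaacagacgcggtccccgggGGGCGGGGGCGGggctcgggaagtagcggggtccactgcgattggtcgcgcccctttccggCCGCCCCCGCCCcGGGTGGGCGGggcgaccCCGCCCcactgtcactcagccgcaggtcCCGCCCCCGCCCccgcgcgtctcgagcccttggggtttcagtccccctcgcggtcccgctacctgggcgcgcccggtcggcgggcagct
Dgkh (chr14:78732680-78732979, minus strand): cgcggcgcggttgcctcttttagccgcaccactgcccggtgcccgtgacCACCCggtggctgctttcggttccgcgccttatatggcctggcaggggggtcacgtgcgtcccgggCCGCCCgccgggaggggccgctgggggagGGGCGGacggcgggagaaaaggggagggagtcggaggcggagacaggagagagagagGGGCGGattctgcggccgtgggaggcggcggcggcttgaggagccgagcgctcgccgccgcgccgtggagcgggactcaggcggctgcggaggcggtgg
Gm36809 (chr7:24954427-24954726, minus strand): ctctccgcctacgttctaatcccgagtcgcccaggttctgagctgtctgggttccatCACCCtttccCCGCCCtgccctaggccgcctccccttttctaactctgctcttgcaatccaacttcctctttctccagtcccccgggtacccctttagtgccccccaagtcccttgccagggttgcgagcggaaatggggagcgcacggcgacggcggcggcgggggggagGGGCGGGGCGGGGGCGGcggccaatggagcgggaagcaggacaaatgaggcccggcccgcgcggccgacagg
Chaserr (chr7:73558346-73558645, minus strand): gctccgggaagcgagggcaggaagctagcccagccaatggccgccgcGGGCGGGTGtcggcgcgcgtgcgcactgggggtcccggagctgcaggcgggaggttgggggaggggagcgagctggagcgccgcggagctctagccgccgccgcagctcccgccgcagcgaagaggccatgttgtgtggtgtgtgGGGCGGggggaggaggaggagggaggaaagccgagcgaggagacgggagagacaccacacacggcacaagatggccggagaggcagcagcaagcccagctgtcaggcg
Olfm2 (chr9:20746247-20746546, minus strand): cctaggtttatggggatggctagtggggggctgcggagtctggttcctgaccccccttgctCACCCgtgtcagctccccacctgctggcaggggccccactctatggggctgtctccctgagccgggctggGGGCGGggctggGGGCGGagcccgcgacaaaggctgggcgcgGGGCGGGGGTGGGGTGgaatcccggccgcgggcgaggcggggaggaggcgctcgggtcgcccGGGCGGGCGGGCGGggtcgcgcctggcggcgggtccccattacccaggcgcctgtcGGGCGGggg
Gm31954 (chr11:68400150-68400449, plus strand): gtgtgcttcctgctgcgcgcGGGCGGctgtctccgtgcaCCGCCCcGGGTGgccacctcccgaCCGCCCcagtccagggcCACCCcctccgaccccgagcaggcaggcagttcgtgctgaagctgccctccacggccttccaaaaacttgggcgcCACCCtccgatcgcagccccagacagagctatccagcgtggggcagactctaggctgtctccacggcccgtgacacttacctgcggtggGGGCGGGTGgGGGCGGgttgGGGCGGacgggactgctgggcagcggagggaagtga

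The Snx25 promoter lay in a peak with a fold of 54.6 that the authors' annotation assigned to Cfap97, a cilia gene, at 10.9 kb upstream. Snx25 encodes a sorting nexin, a protein of endosomal traffic, and its 300 bases held 8 GC boxes and 1 CACCC box, 72.3% of them G or C. The peak over a RefSeq start of Dgkh, a diacylglycerol kinase gene, had a fold of 38.0. That peak lay 7.11 kb upstream of the TSS that the authors' annotation uses. The peak over Gm36809, a long noncoding RNA gene, had a fold of 36.5 and was assigned to Mir7046. Chaserr, a long noncoding RNA gene next to the chromatin remodeller gene Chd2, had a fold of 33.2 in a peak assigned to Chd2 at 15.9 kb upstream. Olfm2, which encodes a secreted olfactomedin protein, had a fold of 32.6, and its promoter held 7 GC boxes and 3 CACCC boxes. Gm31954, another long noncoding RNA gene, had its start in a peak of fold 23.1 assigned to the axon guidance gene Ntn1. Its promoter held 6 GC boxes and 4 CACCC boxes, with some of the GC boxes past the end of the peak. Snx25 and Gm31954 were taken by the rule for named peaks, and the other promoters were chosen after their folds were seen, as the next highest.

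The 33 RefSeq starts in these intergenic peaks belonged to 25 genes, and some starts of 1 gene lay so close that their promoters overlap. Each gene was therefore counted once, by any of its promoters with a start in the peaks. Only the start had to lie in a peak, so parts of some promoters lay outside it. GC boxes were found at 18 of the 25 genes (72.0%, exact 95% binomial interval 50.6 to 87.9), against 70.0% (50.6 to 85.3) of 30 genes with starts in farther intergenic peaks, 85.5% of 5100 genes with starts in promoter-class peaks and 38.2% of all 27025 genes in the table. CACCC boxes were found at 21 of the 25 genes (84.0%, 63.9 to 95.5), against 70.0% (50.6 to 85.3) for farther intergenic peaks, 68.6% for promoter-class peaks and 59.8% of all genes. At least 1 of these boxes was found at 25 of 25 genes, against 26 of 30, 95.4% and 71.2%. The longer box CCACGCCC was in 2 of the 33 promoters (6.06%, 0.743 to 20.2). Its share was 6.06% for farther intergenic peaks, 12.6% for promoter-class peaks and 5.33% of all promoters. The median share of G and C per promoter was 65.7%, against 69.0% for starts in farther intergenic peaks, 69.3% for starts in promoter-class peaks and 52.7% over all promoters. All 3 peak classes thus had more G and C than promoters at large, and the part of base composition in the box counts was not tested.

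Folds of the intergenic peaks within 25 kb lay between those of farther intergenic peaks and those of promoters. Their median fold was 18.2 (95% order-statistic interval 17.4 to 19.2), against 15.9 (15.1 to 17.03) at the 360 intergenic peaks beyond 25 kb and 22.2 (22.0 to 22.5) at promoter peaks. Individual folds ran from 2.40 to 68.1, with quartiles of 13.4 and 23.5. A fold of at least 20 was reached by 140 of the 338 peaks (41.4%, exact 95% binomial interval 36.1 to 46.9), against 30.6% (25.8 to 35.6) of the farther ones and 59.8% (58.7 to 60.9) of promoter peaks; over the whole list the share was 54.7%, above that of both intergenic classes. The difference in median fold from the farther peaks was 2.30, but 0.0774 when the line between near and far was drawn at 10 kb, and 4.22 among peaks with p at or below the list's median. The difference from promoters was -4.03, and -2.41 among peaks with p at or below that median.

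**Figure D1:**
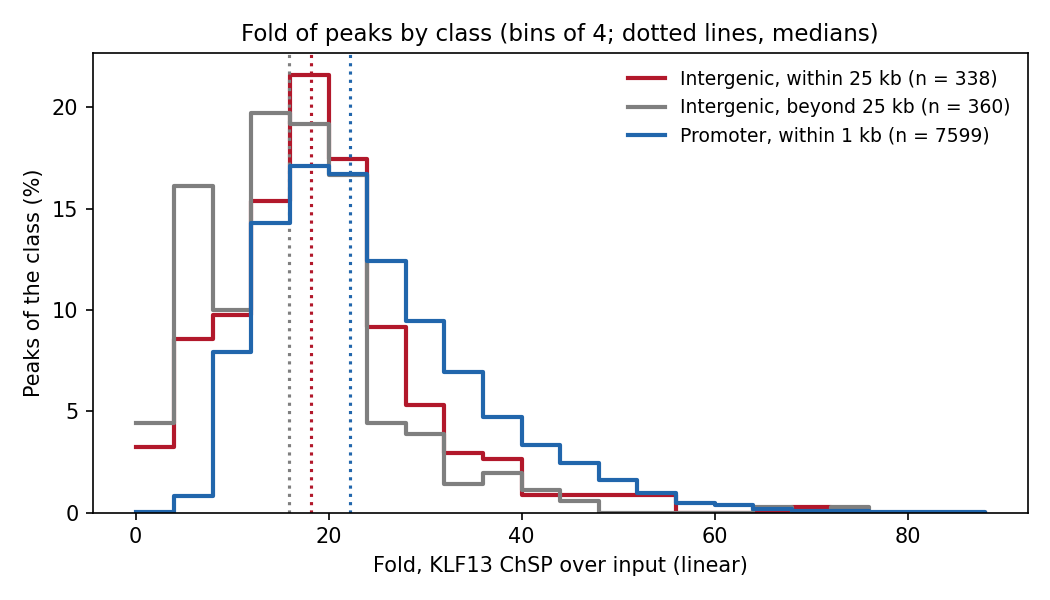
Share of peaks (vertical axis, percent of each class) by fold of KLF13 ChSP over input (horizontal axis, linear, bins of 4) for intergenic peaks within 25 kb of a TSS, intergenic peaks beyond 25 kb and promoter peaks. The dotted medians stand at 18.2, 15.9 and 22.2, and both intergenic classes have a low shoulder of folds under 8 that promoters largely lack.

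The peaks were also narrow. Their median width was 500 bp, against 400 bp for farther intergenic peaks and 700 bp for promoter peaks, in a list whose widths move in steps of 100 bp. Across the 338 peaks, fold and width were related with a Spearman correlation of 0.627, a description over peaks that share libraries. The widest was a peak of 2200 bp assigned to Bicral, a gene for a subunit of BAF-type chromatin remodellers, at chromosome 17, 46856601 to 46858800, with a fold of 32.8. A peak of 1800 bp lay 9.44 kb upstream of Zfhx3, a zinc finger homeobox gene of neuronal differentiation, with a fold of 37.7. In the RefSeq table the Bicral and Zfhx3 peaks each lay inside the gene of that name.

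The highest folds stood near genes of several kinds. The top peak, with a fold of 68.1 (the authors' p = 4.54e-17), lay at chromosome 2, 151775901 to 151776500, 24.5 kb upstream of 4930556L07Rik, an uncharacterised gene, and overlapped no gene of the RefSeq table. Rcan3 (ENSMUSG00000059713), a regulator of the phosphatase calcineurin, had an intergenic peak of fold 55.1 at chromosome 4, 135439101 to 135439700, 5.30 kb upstream. The Mir5106 peak, of fold 52.8 at chromosome 4, 44233301 to 44234500, lay 12.03 kb upstream of the hairpin. Fat1, an atypical cadherin gene, had a fold of 50.1 at 11.7 kb upstream, inside the RefSeq bounds of Fat1. The peak assigned to the zinc finger gene Zfp541, of fold 48.9, lay 23.5 kb upstream and overlapped an end of Bicra, another gene for a BAF-type remodeller subunit. The Mir3089 peak had a fold of 44.8 at chromosome 2, 30707801 to 30708500.

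Regulators of transcription and signalling were among the genes with high folds. Hes1, the bHLH repressor that acts downstream of Notch, had a fold of 50.4 at chromosome 16, 30069901 to 30070800, 4.54 kb downstream of its TSS (the authors' p = 6.29e-17). That peak overlapped an end of Gm32998, a long noncoding RNA gene of the RefSeq table. Tcf12, which encodes a bHLH partner of neurogenic factors, had a fold of 44.7 at 20.9 kb upstream. Id3, an inhibitor of bHLH factors that BMP signalling induces, had a fold of 41.7 at 3.78 kb downstream. Tiam2, an activator of the GTPase Rac in neurons, had a fold of 42.8 at 11.9 kb upstream. Nr4a1, the immediate early gene for an orphan nuclear receptor, had a fold of 38.0 at 12.2 kb upstream and lay at an end of Nr4a1 in the RefSeq table.

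**Figure D2:**
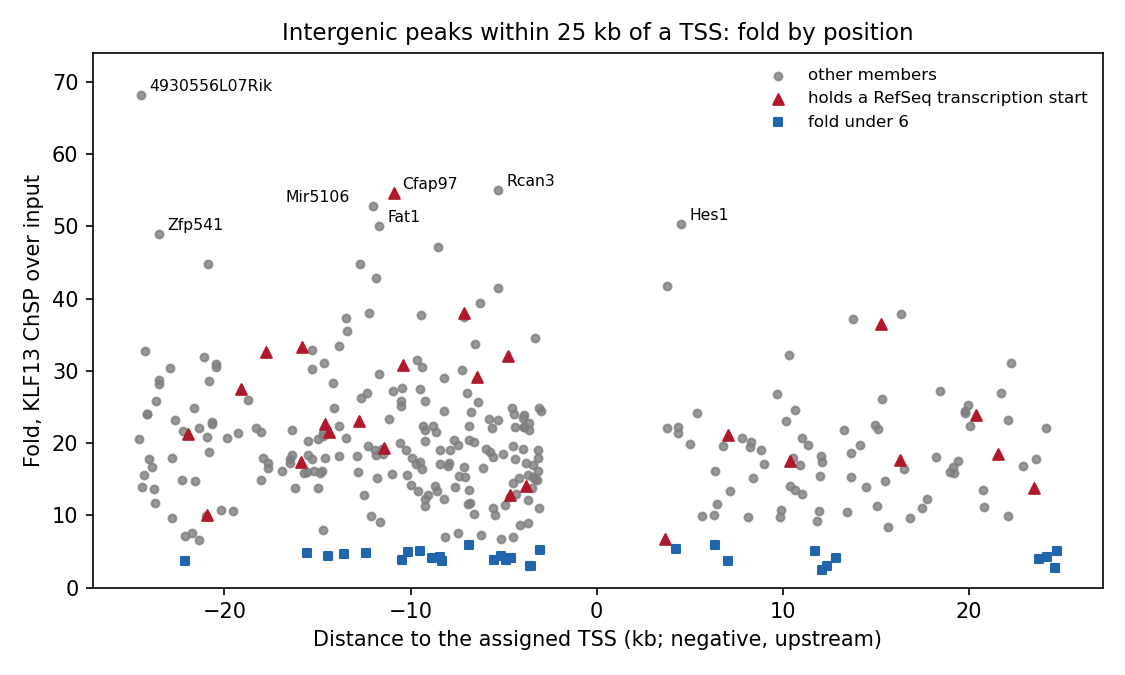
Fold of KLF13 ChSP over input (vertical axis) against the distance to the assigned TSS in kb (horizontal axis, negative upstream) for the 338 intergenic peaks within 25 kb; triangles hold a RefSeq start, squares have a fold under 6. The gap around 0 holds no intergenic peak because the annotation calls peaks within 3 kb of a TSS promoter peaks, and high folds such as 68.1 at 4930556L07Rik occur far from the TSS as well as near it.

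Position within the 25 kb had little relation to fold. The Spearman correlation of fold with absolute distance was 0.0898 over the 338 peaks. The median fold was 16.6 for the 50 peaks between 3 and 5 kb, 17.7 for 96 peaks between 5 and 10 kb, 19.1 for 84 peaks between 10 and 15 kb, 17.8 for 50 peaks between 15 and 20 kb and 19.7 for 58 peaks between 20 and 25 kb. The order-statistic intervals of these 5 medians overlapped. The quartiles of distance were 6.86, 11.3 and 16.5 kb.

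Most of the peaks lay upstream. Upstream of the assigned TSS lay 244 peaks (72.2%, exact 95% binomial interval 67.1 to 76.9) and downstream 94, against 56.1% (50.8 to 61.3) upstream among farther intergenic peaks. The upstream share was 86.0% between 3 and 5 kb and 58.0% between 15 and 20 kb. A downstream peak is intergenic only where it lies past the end of the gene, and the longest gene with such a peak spanned 23.0 kb, so the class definition takes part in this split. The median fold was 18.8 (17.8 to 20.3) upstream and 17.2 (15.2 to 18.7) downstream, with overlapping intervals.

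At the outer limit, the peaks just inside 25 kb were assigned to Mir7213, with a fold of 5.05, and to Ly6c2, a lymphocyte antigen gene, with a fold of 2.78. The peaks just outside were another peak of Ly6c2, with a fold of 3.63, and a peak of Kcnb2, a potassium channel gene, with a fold of 19.5. The Ly6c2 peaks are next to each other on chromosome 15, at 75087001 to 75087300 and at 75085201 to 75086900, so the limit divides a pair of neighbours. The peaks nearest to a TSS lay 3001 bp upstream of 9530059O14Rik, an uncharacterised gene, with a fold of 24.4, and 3047 bp upstream of Txlng, with a fold of 5.27.

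Many of the peaks had neighbours in the list. Another peak lay within 10 kb of 153 of the 338 (45.3%, exact 95% binomial interval 39.9 to 50.7), against 19.7% (15.7 to 24.2) of farther intergenic peaks and 21.0% (20.1 to 21.9) of promoter peaks. Of the 291 genes, 249 had 1 such intergenic peak, 37 had 2 and 5 had 3. Cdkn1c, which encodes the cell cycle inhibitor p57, was the gene with the highest fold among those 5. Its intergenic peaks had folds of 31.1 at 22.3 kb downstream, 22.5 at 14.95 kb downstream and 22.8 at 3.65 kb upstream, beside promoter peaks of 45.6 and 19.6. The 3 peaks of Mir6417 had folds of 26.9, 24.5 and 11.2 and overlapped Ppargc1a, the gene for a coactivator of mitochondrial biogenesis, in the RefSeq table. The peaks of Pisd-ps1 on chromosome 11 had folds between 7.11 and 11.7.

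The assigned genes also tended to have a peak at their promoter. Of the 338 peaks, 155 (45.9%, exact 95% binomial interval 40.5 to 51.3) were assigned to a gene with a promoter peak, against 44.4% (39.2 to 49.7) of farther intergenic peaks. Among the 240 assigned protein-coding genes 128 had a promoter peak, or 53.3% (46.8 to 59.8), against 53.6% of the 239 protein-coding genes assigned to farther intergenic peaks and 30.9% of all 21900 protein-coding genes. The intergenic peak had the lower fold in 107 of the 155 pairs and the higher in 48, with medians of 18.5 for the intergenic and 22.7 for the promoter peaks. Intergenic peaks of genes with and without a promoter peak had median folds of 18.5 and 17.9.

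Several genes nevertheless had their highest fold outside the promoter peaks of the authors' annotation. Tiam2 had folds of 42.8 at its intergenic and 10.0 at its promoter peak. Elovl5, a fatty acid elongase gene, had 39.4 and 19.1, and Nr4a1 had 38.0 and 19.0. In the RefSeq table, the Nr4a1 peak of fold 38.0 lay at an end of Nr4a1 itself. Hes1 had 50.4 at the intergenic and 38.0 at the promoter peak, with a further peak of 24.6 between 1 and 2 kb from the TSS. Tcf12 had 44.7 and 39.6. In Rcan3 the order was the other way, with 55.1 at the intergenic and 72.2 at the promoter peak. Elovl5 was named after its values were seen.

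**Figure D3:**
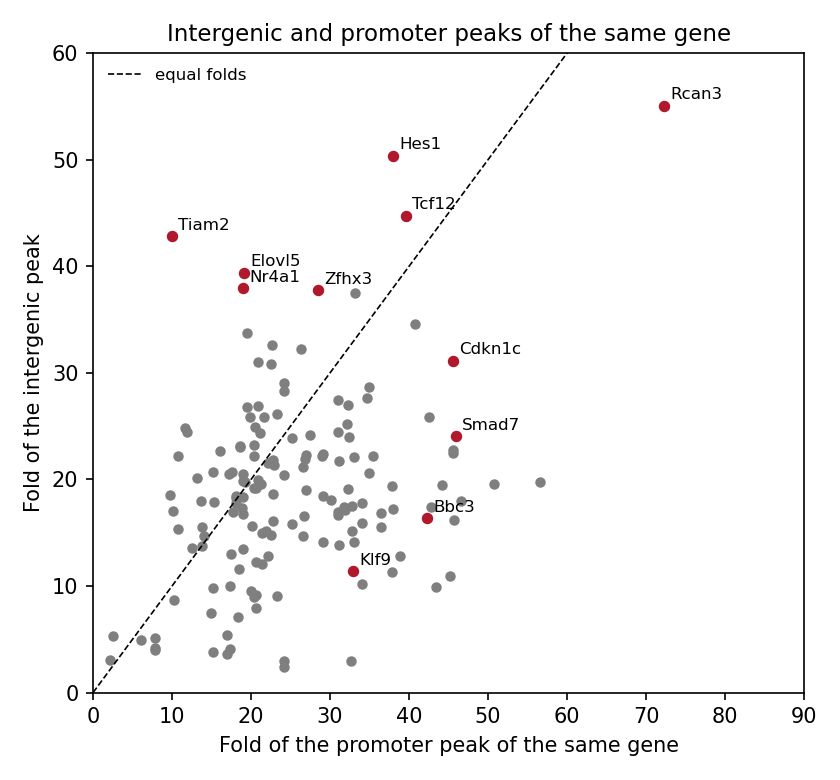
Fold of each intergenic peak (vertical axis) against the highest promoter fold of the same gene (horizontal axis) for the 155 peaks whose gene has a promoter peak; the dashed line marks equal folds and red points are named genes. Below the line lie 107 peaks, and Tiam2, Elovl5, Nr4a1, Hes1, Zfhx3 and Tcf12 lie above it.

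Of 12 gene lists, holding 386 genes in all, 16 genes had an intergenic peak within 25 kb (4.15%), against 17 with a farther intergenic peak, and 240 of 21900 protein-coding genes (1.10%) had an intergenic peak within 25 kb. The lists were drawn up with earlier results of these data known, so their counts support nothing by themselves. None of these 16 genes was in the lists for the circadian clock (24 genes), cAMP signalling (38), JAK-STAT signalling (29), synapse and ion channels (39) and glial markers (26). Promoter peaks were at 18, 27, 17, 23 and 7 genes of these 5 lists, against 6769 of all 21900 protein-coding genes (30.9%).

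In the KLF and Sp family 4 of 26 genes had such a peak, and 20 had a promoter peak. Over all protein-coding genes these shares were 1.10% and 30.9%. Sp7, an osteoblast regulator, had a fold of 31.5 at 9.63 kb upstream and no promoter peak. Sp8, a regulator of forebrain patterning, had 25.8 at 9.23 kb upstream, beside 21.6 at its promoter. Klf9, the close paralogue of Klf13, had 11.4 at the intergenic peak, 4.93 kb upstream, and 33.0 at its promoter. The pluripotency factor gene Klf4 had 10.95 at the intergenic peak and 45.2 at its promoter.

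Id genes were 3 of the 4 genes with such a peak in the list of TGF-beta and BMP signalling, which held 35 genes. The share with such a peak over all protein-coding genes was 1.10%. Id3 had folds of 41.7 and 17.1 at 3.78 kb downstream and 8.42 kb upstream, Id1 had 18.4 at 11.9 kb upstream and Id2 had 17.8 at 4.41 kb upstream. None of these 3 had a peak within 1 kb of its TSS, although Id1 and Id2 had peaks of 10.3 and 28.2 between 2 and 3 kb away. Smad7, which encodes an inhibitor of the same pathway, had folds of 24.1 at the intergenic peak, 24.2 kb upstream, and 45.9 at the promoter.

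Among 24 immediate early genes 3 had such a peak: Nr4a1 with a fold of 38.0, Fos with 15.4 at 12 kb downstream and Gadd45b, a stress response gene, with 10.0. Neither Fos nor Gadd45b had a promoter peak. In the cell cycle list 2 of 40 genes had an intergenic peak within 25 kb, Cdkn1c and the cyclin gene Ccne1. The intergenic fold of Ccne1 was 9.87, against 43.4 at its promoter. In the Wnt list 1 of 36 genes, Lef1, a transcription factor that acts with beta-catenin, had folds of 22.2 and 15.4 at 3.90 and 3.40 kb upstream, beside 10.8 at its promoter. The axon list held 1 of 39 genes, Ntn1, with 23.1 at the intergenic and 18.6 at the promoter peak. The apoptosis list held 1 of 30, the cell death gene Bbc3, with 16.4 at the intergenic and 42.2 at the promoter peak. Over all protein-coding genes the share with an intergenic peak within 25 kb was 1.10%. The Wnt, axon and apoptosis counts each rest on 1 gene.

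Developmental transcription factors formed a sizeable group of the assigned genes. They were grouped by family after the gene names had been seen, so the counts are a description. Of the 338 peaks 43 (12.7%, exact 95% binomial interval 9.36 to 16.8) were assigned to basic helix-loop-helix (bHLH) and Id, homeobox, POU and paired box, forkhead or T-box genes, against 6.11% (3.87 to 9.11) of farther intergenic peaks and 3.51% (3.11 to 3.95) of promoter peaks. Of these 43 peaks 31 had a gene with a promoter peak, against 155 of all 338 (45.9%). The median fold of the 43 was 19.8, against 18.2 for the 338. No test of these shares was made, since peaks share libraries and neighbours are assigned to the same gene.

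The bHLH and Id genes took 12 of the peaks, at 9 genes, with folds from 10.5 to 50.4. Besides Hes1, Tcf12 and the Id genes, this group held the proneural genes Neurog1 and Neurog2, which start neuronal differentiation. Neurog1 had a fold of 20.5 at 6.84 kb upstream and Neurog2 had 19.8 and 13.4 at 7.45 and 6.85 kb upstream, beside promoter folds of 19.0 and 18.9. Neurod2, which acts later in cortical and hippocampal neurons, had intergenic folds of 21.5 and 12.8 and a promoter fold of 22.1. The peak of fold 12.8 held the RefSeq start of another protein-coding gene, Gm33099. Nhlh2, a gene of neuroendocrine cells, had 10.5 at 13.5 kb downstream.

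Homeobox, POU and paired box genes took 21 peaks at 16 genes. Zfhx3 had the highest fold of the group, 37.7. Otp, which specifies hypothalamic neurons, had folds of 33.8 at 6.53 kb upstream and 26.8 at 9.67 kb downstream, against 19.4 at its promoter. Pou3f2, which encodes the neural factor BRN2, had 32.2 at 10.4 kb downstream. Pax2 had 30.8 and 14.8 at 10.4 and 22.3 kb upstream, and the peak of fold 30.8 held a RefSeq start of Pax2. Pax3, a neural crest regulator, had 21.4 and 10.7 at 19.3 and 20.2 kb upstream with no promoter peak.

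Forkhead genes took 6 peaks (1.78%), against 2.22% of farther intergenic peaks, the order opposite to that of the 4 families together. T-box genes took 4 peaks at 3 genes (1.18%, exact 95% binomial interval 0.323 to 3.00). Of the 360 farther peaks they took 0, with an interval of up to 1.02%, and the 2 intervals overlapped. Foxc1 had the highest fold of the forkhead group, 22.2 at 4.36 kb downstream. Tbr1, a T-box gene of glutamatergic cortical neurons, had folds of 20.8 and 13.5 at 11.05 and 10.65 kb downstream, past a peak of 20.9 in its 3' end. These were all named after their values were seen.

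**Figure D4:**
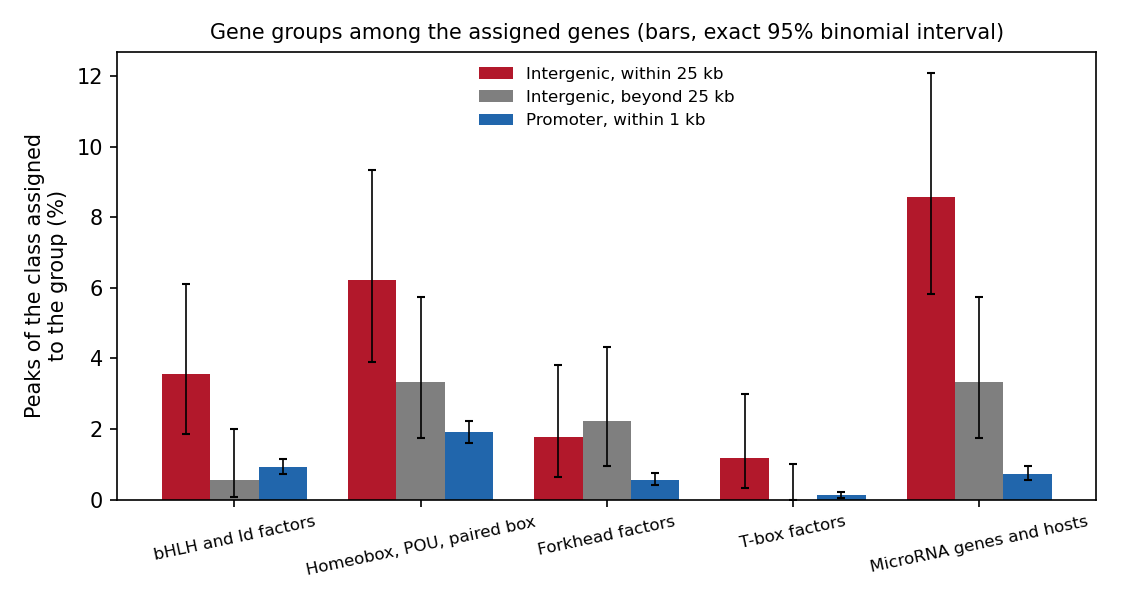
Share of peaks assigned to each gene group (bars, percent, with exact 95% binomial intervals) for intergenic peaks within 25 kb, intergenic peaks beyond 25 kb and promoter peaks. The bars of the first class stand at 3.55% for bHLH and Id genes, 6.21% for homeobox, POU and paired box genes and 8.58% for microRNA genes and hosts.

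MicroRNA genes and their host genes were assigned 29 of the peaks (8.58%, exact 95% binomial interval 5.82 to 12.1), against 3.33% (1.73 to 5.75) of farther intergenic peaks and 0.724% (0.546 to 0.941) of promoter peaks. For 26 of the 29 the assigned unit was the hairpin itself, between 57 and 116 bp long, so the distance runs to a hairpin and not to the start of a primary transcript. Of the 20 genes 14 had a mature sequence in the RefSeq table, with 24 mature forms and 24 distinct seeds. No pair of these 24 forms shared a seed. Seeds of the other genes, Mir30d among them, were not compared. The forms below are those of the highest folds and of microRNAs with known roles in neurons, with RefSeq positions on GRCm38.p6 and the seed (bases 2 to 8) in capitals.
mmu-miR-5106 (chr4:44221197-44221219, minus strand): aGGUCUGUagcucaguuggcaga
mmu-miR-3089-5p (chr2:30721222-30721243, plus strand): uGAGUUCAgggacagcgugucu
mmu-miR-181c-5p (chr8:84178924-84178945, minus strand): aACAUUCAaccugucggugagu
mmu-miR-30a-5p (chr1:23272274-23272295, plus strand): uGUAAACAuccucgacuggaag
mmu-miR-23a-3p (chr8:84208563-84208583, plus strand): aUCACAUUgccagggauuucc
mmu-miR-9-5p (chr13:83738821-83738843, plus strand): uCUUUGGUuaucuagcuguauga

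Mir181c, whose product acts on synaptic and immune targets, had folds of 35.5 and 24.0 at 13.4 and 4.44 kb upstream on chromosome 8. Mir23a had a fold of 30.1 at 7.22 kb upstream on the same chromosome. Mir30a and Mir30d had folds of 32.8 and 31.9 at 15.3 and 21.1 kb upstream. Among microRNA genes of neural cells, Mir9-2 had 16.1 at 6.39 kb downstream and the host gene Mir124-2hg had 10.997 at 3.12 kb upstream. The host gene Mir9-3hg had 25.2 at 20.0 kb downstream, beside 32.1 and 26.8 at promoter peaks. The Mir3089 peak overlapped no RefSeq gene. Of the 29 peaks 16 had a fold of at least 20, against 140 of the 338 and 5201 of 9506 (54.7%) over the whole list. The lowest fold of the 29, 4.12, was at Mir101c.

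Whether the peaks were intergenic depended on the annotation. Of the 338, 144 (42.6%, exact 95% binomial interval 37.3 to 48.1) overlapped a gene of the RefSeq table, 81 of them a protein-coding gene and 63 other kinds of gene only, and 43 overlapped the very gene to which they had been assigned. Among farther intergenic peaks the share was 40.6% (35.4 to 45.8). The median fold was 20.1 (18.5 to 22.1) for the 144 peaks that overlapped a RefSeq gene and 17.002 (15.7 to 18.2) for the other 194. Within 1 kb of an end of a RefSeq gene lay 122 peaks (36.1%), with a median fold of 20.4 (18.8 to 22.2), against 17.3 (16.2 to 18.2) for the rest. The 25 peaks that held a RefSeq start had a median fold of 21.6 (17.6 to 29.1) and a median width of 700 bp, and the 308 that did not had 17.9 (17.04 to 19.0) and 500 bp.

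Low folds were more common than at promoters. A fold under 6, a line drawn after the folds had been seen, was found at 30 of the 338 peaks (8.88%, exact 95% binomial interval 6.07 to 12.4), against 15.6% (11.97 to 19.7) of farther intergenic peaks and 0.158% (0.0816 to 0.276) of promoter peaks. These 30 had a median width of 300 bp, and 24 of them had another peak of the list within 10 kb. The lowest folds were 2.40 and 3.00 at neighbouring peaks downstream of P4ha2, a collagen hydroxylase gene, 2.78 at Ly6c2 and 2.96 at Eif4enif1, a gene of the translation machinery. On chromosome 9 the 3 peaks of Mir101c, with folds of 4.12, 5.07 and 5.87, lay between 3025601 and 3032400.

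Of the 30 low folds, 10 came from a stretch of chromosome X. Within its 4 Mb, at positions 162654101 to 164081300, lay 11 of the peaks, with folds from 3.76 to 6.96 and a median of 4.63, and 10 of these were under 6. The stretch was set after the folds had been seen. The 5 peaks elsewhere on chromosome X had folds from 13.7 to 28.4. The whole list held 68 peaks in this stretch, with a median fold of 4.67, and 175 elsewhere on chromosome X, with a median of 21.1. The peaks of Ap1s2, a gene for an adaptor of vesicle coats, had folds of 5.07, 4.22 and 4.03 there, and its promoter peak had 7.85. Without this stretch the median fold of the class was 18.5, and without folds under 6 it was 19.1.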

How the data were processed

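Chromatin of 8 libraries, 4 of KLF13 ChSP and 4 of input, was represented by a single list of peaks. The submitters' processing notes name the build GRCm38 and, with no role for each, HOMER 4.9.1, FastQC 0.11.3, ChIPseeker 1.16.1 and BWA 0.7.17-r1188. The name of the list gives PePr as the caller. The authors deposited for each peak p-values, raw and adjusted, and a linear ratio (fold) of ChSP to input. The score that they deposited is proportional to the fold and stayed unused. Width, annotation class, assigned gene and signed distance to the TSS are the authors' columns per the file headers. Library depth and the scaling between libraries are unknown.

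Peaks were classed by the deposited annotation and a distance of 25 kb. Computed here were medians with 95% order-statistic intervals, shares with exact binomial (Clopper-Pearson) intervals, and overlaps with RefSeq genes and starts (GRCm38.p6), for which all 338 assigned gene identifiers matched. Box counts used the RefSeq promoter table, since motif counts over whole peaks had been planned and no genome was used. No test was run, because no value exists per library. The replicate numbers in the labels are not said to mark separate cultures. Intervals, searches and distances were tested on simulated data.

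The members and the gene lists were chosen with earlier results of these data known. Named peaks were the 12 highest and 4 lowest folds, the 3 widest, those at the distance limits and nearest to a TSS, up to 6 genes with most peaks, the 5 highest at an end of another RefSeq gene, the 3 highest without a promoter peak, and up to 2 per gene list. All other list genes with a peak are named too. Some peaks that this rule takes are not reported here. Other names were chosen after their values were seen and are said to be so or belong to the family and microRNA groups. Values were computed with scipy 1.17.1 and numpy 2.4.6 under Python 3.11.15, with tables read by pandas 2.3.3 and figures drawn by matplotlib 3.10.9.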

Additional observations from a re-analysis of the deposited data

How the results depend on the processing

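No paired analysis was possible because each peak has 1 value for the pooled libraries, and for the same reason no library could be omitted. Of 85 values recomputed under other settings, 23 moved and none changed sign; the limit was the reported interval for medians and shares, the error of the median fold for differences and 1.5 times for the number of peaks, which was 472 with a limit of 50 kb. Among peaks with p at or below the list's median, 85 of the intergenic peaks remained, with a median fold of 25.8, 75.3% of folds at least 20, a median width of 700 bp, 81.2% upstream, 34.1% with a promoter peak of the same gene, 43.5% near an end of a RefSeq gene, and differences in median fold of 4.22 from farther peaks and -2.41 from promoters. With a limit of 10 kb there were 146 peaks, with a median fold of 17.3, 80.8% upstream, 52.1% with a promoter peak, and differences of 0.0774 and -4.98. Without intergenic peaks that overlap a RefSeq gene, a setting chosen after seeing the data like those without the chromosome X stretch and without folds under 6, there were 194 peaks, with a median fold of 17.002, 34.5% of folds at least 20 and a difference from promoters of -5.23. The mean of log2 fold, turned back to the linear scale, gave 16.6 and a difference from promoters of -5.59. The share near an end of a RefSeq gene was 30.2% within 500 bp and 49.7% within 3 kb. The cause of these moves was not tested. Counting starts within 1 kb, added after seeing the data, gave 12.01% in place of 7.51%, and counting each gene once, also added then, kept both box shares within the interval over starts. The planned motif counts over peak sequences were not run, for want of a genome. Read depth is unknown, so its limit on single folds cannot be given.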

Other observations

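Other genes near these intergenic peaks, named after their values were seen, included chromatin and signalling regulators. The Polycomb gene Cbx8 had intergenic folds of 20.3 and 15.9 at 15.5 and 14.9 kb upstream. Bmi1, another Polycomb gene, had 19.4 at 8.23 kb downstream, beside 44.2 at its promoter. The nuclear factor I genes Nfib and Nfix had folds of 37.5 and 27.6 at 7.12 and 10.5 kb upstream, beside 33.2 and 34.7 at their promoters. Nrarp, a feedback inhibitor of Notch signalling, had folds of 26.9 at 12.4 kb upstream and 19.9 at 5.04 kb downstream, beside 20.9 at its promoter. Ptch1, the Hedgehog receptor gene, had intergenic folds of 16.9 and 15.5, beside 36.5 at its promoter. Among neuronal surface genes, Adgrl1, a latrophilin gene, had intergenic folds of 28.7 and 20.6 and Grm4, a glutamate receptor gene, had 20.4, beside promoter folds of 34.9 and 24.2. These are values only, and no list was tested.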
